A study of Mus musculus with 6 samples.

Results

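Among the probes of a mouse expression array, 16172 carried no gene or transcript accession and were named by a genome interval of build mm9 and, for all but 13 of them, a strand letter, F or R. The members described here were chosen by the scanner software's detection flags: they are the 8707 of these probes (53.84%) flagged as well above background on 3 or more of the 6 arrays, out of 55681 probes on the array in all. They lie in 2773 of 3539 such intervals, and in 3557 of 4605 combinations of interval and strand letter, called interval strands below. A further 22 probes, in 4 intervals, are not reported here. Of the members, 4160 carried the letter F, 4537 the letter R and 10 no letter. The files do not state which letter stands for which direction of the RNA. Whether each interval lies outside genes was not analysed here, so members are named by position alone.

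The cells were J1 mouse embryonic stem cells, a line of strain 129S4/SvJae derived from the inner cell mass, adapted to growth on gelatin in serum replacement medium with 1000 U/mL of the cytokine LIF, which both groups received. One group was treated with DMSO, the solvent, and the other with 3 µM SB431542, each for 24 h, with 3 Cy3-labelled arrays of total RNA per group. SB431542 blocks ALK4, ALK5 and ALK7, the type I receptors that carry Nodal, activin and TGF-beta signals to Smad proteins, and the comparison asks what changed when it was added. All arrays come from 1 cell line. The labels do not say whether replicates came from separate cultures, so the spread behind each p-value is that between these 6 RNA samples and may be technical.

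Long intergenic noncoding RNAs are transcripts made from stretches between protein-coding genes. Many are spliced and polyadenylated like messenger RNAs, are present at lower levels, and vary more between cell types. In embryonic stem cells, some such RNAs have been described as targets of the pluripotency factors, and others as RNAs that help to hold the undifferentiated state. Array probes named by position can also report on unannotated ends of coding transcripts, on antisense RNA or on RNA from enhancers. A position alone does not tell these apart.

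The target genes of the blocked receptors fell on these arrays, which checks the labels. Lefty1, a secreted Nodal antagonist, fell by 9.43 ± 0.20 on the log2 scale (SE, n = 3 against 3), and Lefty2, Pmepa1, Skil and Nodal also fell. Lefty1 was well above background on 2 of the 3 SB431542 arrays, so the size of its fall rests on signals near background. All 7 embryonic stem cell markers examined were well above background on every array, with a summed level of 545 to 571 in DMSO and 403 to 450 in SB431542, relative to each array's 75th percentile signal. Of 8 fibroblast markers, 4 were well above background on every array and 2 on none, with summed levels of 45.4 to 47.2 in DMSO and 44.0 to 47.6 in SB431542. Markers of primitive endoderm ran from 0.938 to 0.982 and from 0.958 to 1.09, those of neuroectoderm from 3.00 to 3.05 and from 2.26 to 2.41, and those of trophoblast from 4.58 to 4.82 and from 3.86 to 4.37. Bright markers weigh most in such sums. The median log2 change was -0.09 for stem cell markers (2 called lower), -0.15 for fibroblast (2 lower) and -0.08 for neuroectoderm (2 lower). For primitive endoderm it was 0.02 (1 called higher), and for trophoblast -0.02 (1 higher, 1 lower). The part of these shifts in the results below was not tested. In RNA from whole cultures, fewer cells of a type and less RNA per cell cannot be told apart. SB431542 replicate 3 was the only array on the second slide and scan.

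The rule used the background flags of the same arrays, so the counts of detection are a description. Of the position-named probes, 7415 were well above background on all 6 arrays, 510 on 5, 379 on 4 and 403 on 3. Just outside the rule lay 457 probes that passed on 2 arrays, followed by 939 on 1 array and 6069 on none. The median signal, in units of processed intensity, was 9.36 for probes that passed on 2 arrays, 11.2 for those on 3 and 67.4 for those on 6. Intervals with a member had a median length of 9326 bp, with quartiles of 1225 and 24014 bp, and the 766 intervals without one had a median length of 2033 bp. Each array detected between 8001 members, in SB431542 replicate 3, and 8458, in DMSO replicate 2.

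Of the members, 8688 could be tested, since 19 had a spot flagged as an outlier on an array. They made up 24.0% of the 36210 probes tested. At an adjusted p under 0.05, 655 members differed between SB431542 and DMSO, which is 7.54% of those tested, against 10.8% of all probes tested. Members that were higher with SB431542 numbered 217 (2.50%, against 4.29% of all probes), and 438 were lower (5.04%, against 6.49%). A change of at least 2-fold was seen in 110 of the called members (1.27%, against 1.57% of all probes), of which 33 were higher (0.38%, against 0.4% of all probes) and 77 lower (0.89%, against 1.17%). The groups did not overlap for 2291 members (26.4%, against 34.7% of all probes). The median log2 change was 0.02 over the members and 0.01 over all probes. The called members lay in 385 intervals, and their median change was 0.59 in size on the log2 scale. The count of 655 depends on which arrays are in the fit, as does the share of all probes called. It was 302, 270 and 273 without DMSO replicates 1, 2 and 3 in turn. These are 3.48%, 3.11% and 3.14% of members, against 4.84%, 4.39% and 4.55% of all probes. Without SB431542 replicates 1, 2 and 3 in turn the count was 542, 427 and 532. These are 6.24%, 4.91% and 6.12% of members, against 7.46%, 6.91% and 9.14% of all probes.

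**Figure D1:**
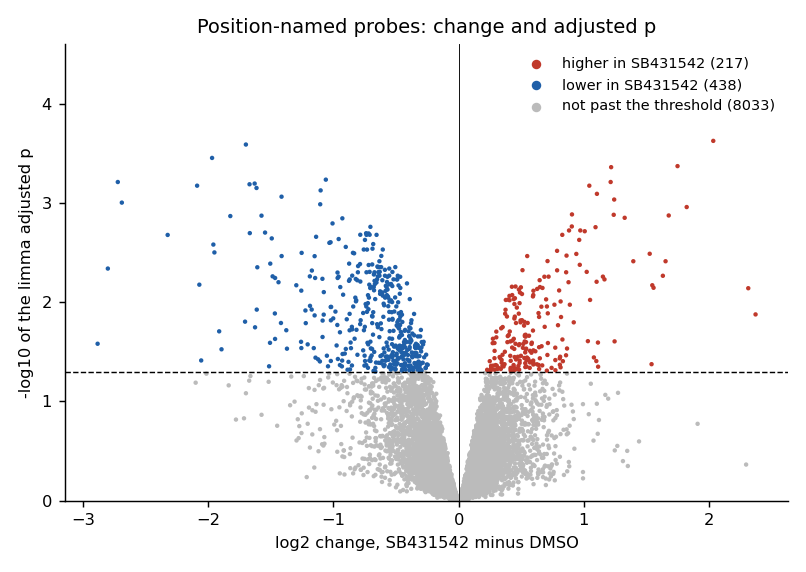
Change and adjusted p of the 8688 position-named probes tested. The horizontal axis is the log2 change (SB431542 minus DMSO, 3 arrays each) and the vertical axis is minus log10 of limma's adjusted p; coloured points are the 217 higher and 438 lower probes past the threshold of 0.05.

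Position-named probes were measured less precisely than the rest of the array. The median SE of the log2 change was 0.133 for them and 0.0925 for all probes. The median SD between arrays was 0.127 in DMSO and 0.197 in SB431542 for the members, against 0.0785 and 0.126 for all probes. RefSeq coding transcripts were called in 13.1% of their 20243 probes, with 1135 higher and 1513 lower and a median SE of 0.0775. RefSeq noncoding transcripts were called in 12.7% of 646 probes, with 22 higher and 60 lower and a median SE of 0.107. Probes named by Ensembl transcripts were called in 9.11% of 1845, with 56 higher and 112 lower and a median SE of 0.111. The 4777 probes with other names were called in 7.14%, a share below that of the members, with 123 higher and 218 lower and a median SE of 0.104. The difference in these shares between classes was not tested, nor was the part of the SE in it.

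Members that passed the detection rule through 1 group alone had to differ, so they are counted apart. Only DMSO arrays carried 81 members past the rule, of which 40 were called lower and 28 of those by at least 2-fold. SB431542 arrays alone carried 14, of which 6 were called higher. Among the 7401 members well above background on all 6 arrays, 7.70% were called, against 10.8% of all 33227 probes that passed on every array. Of these members, 200 were higher (2.70%, against 4.5% of those 33227 probes) and 370 lower (4.999%, against 6.34%). The excess of falls over rises was thus also present among members detected everywhere. Letter F probes were called in 6.34% of 4151 (83 higher, 180 lower) and letter R probes in 8.64% of 4527 (134 higher, 257 lower). By chromosome, the share called ran from 3.16% on chromosome 9 to 15.3% of 352 members on chromosome 10, the latter with 33 higher and 21 lower.

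The largest rise among members with detected signal in both groups lay on chromosome 16. The interval chr16:9129538-9137898 is 8361 bp long and has 5 probes with the letter F, all of which rose. The probe with the smallest p read -4.00, -4.06 and -3.85 on the 3 DMSO arrays and -1.99, -1.92 and -1.89 on the 3 SB431542 arrays, as log2 signal relative to the array's 75th percentile. The groups lay far apart, and the change was 2.03 ± 0.07 (SE, n = 3 against 3), or 4.10-fold, with an adjusted p of 0.00024. The size of this change depends on the background treatment: with normexp, another background correction that adds an offset of 50 to each signal, the change was 1.18. Across the 36 members chosen for their change, 31 changes were over 1.5 times smaller with normexp, none (0) reversed, and no other alternative moved any (0) that far. The normexp value is given below beside each such change, except those given as bounds. The 5 probes rose by 1.03 to 2.37. The probe with the largest rise was well above background on only 1 DMSO array, where the others passed on all 6. A second interval on the same chromosome with the letter F, chr16:9158862-9162427, had 3 probes, and all 3 rose, by 0.83 to 1.15. Its best probe read -3.33, -3.54 and -3.54 with DMSO and -2.20, -2.58 and -2.18 with SB431542, a change of 1.15 ± 0.13 (0.70 with normexp).

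The interval with the most probes that rose was chr10:94900849-94928059, 27211 bp long, where both letters rose. With the letter R, 9 of 10 tested probes rose. The R probe with the smallest p read -1.53, -1.46 and -1.41 with DMSO and -0.44, -0.38 and -0.45 with SB431542. These groups did not overlap, and the change was 1.04 ± 0.06 with an adjusted p of 0.00067. The R probe that was not called changed by 0.30 ± 0.09, with an adjusted p of 0.098. With the letter F, 5 of 8 tested probes rose, by 1.53 to 1.82. The F probe with the largest rise read -4.89, -5.16 and -4.83 with DMSO and -3.31, -3.06 and -3.04 with SB431542, a change of 1.82 ± 0.12 (0.71 with normexp). Of the 3 F probes not called, 1 was well above background on 2 DMSO arrays and 1 SB431542 array and spread widely, from -7.87 to -4.49 with SB431542. The members of this interval account for 14 of the 33 rises on chromosome 10.

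The shortest interval among the largest rises was chr2:172343878-172344212, 335 bp long, with 3 letter R probes. All 3 rose, by 1.11 to 1.22, the narrowest range among the rises named here that had 3 or more probes. The probe with the smallest p read -1.36, -1.23 and -1.33 with DMSO and -0.11, -0.07 and -0.09 with SB431542. The change was 1.22 ± 0.06, with an adjusted p of 0.00044, and arrays of 1 group differed by far less than the groups did.

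The interval chr3:87757295-87774970 also rose on both letters. Of 5 F probes 4 rose, and the one with the largest rise read 0.47, 0.47 and 0.69 with DMSO and 1.56, 1.63 and 1.72 with SB431542. That change was 1.09 ± 0.09, with an adjusted p of 0.0018. The fifth F probe was not called, at 7.32, 7.35 and 7.35 with DMSO and 7.32, 7.32 and 7.38 with SB431542. Probes of 1 interval and letter therefore did not all report the same change. With the letter R, 2 of 3 probes rose, the one with the smaller p by 0.88 ± 0.07 (0.29 with normexp).

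Both tested letter R probes of chr14:65205076-65219432 rose, by 0.92 and 0.96 on the log2 scale, the latter from -0.70, -0.83 and -0.79 to 0.33, 0.18 and 0.07. In chr8:82836971-82849309, letter R, 2 of 3 probes rose, the best by 1.10 ± 0.13 (0.43 with normexp). In chr11:68200716-68214458, letter R, 2 of 4 rose, the best by 1.55 ± 0.19 (0.49 with normexp), while the median over the 4 was 0.54. In chr3:145270309-145270779, letter F, 1 of 3 rose, by 0.89 ± 0.13 (0.34 with normexp). Neighbouring intervals on chromosome 17, chr17:45524689-45525320 and chr17:45525567-45526189, lie 247 bp apart and both carry the letter R. They rose in 3 of 3 and in 2 of 3 probes, with medians of 0.69 and 0.65. The best probe of the latter interval rose by 0.91 ± 0.06 (0.45 with normexp).

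**Figure D2:**
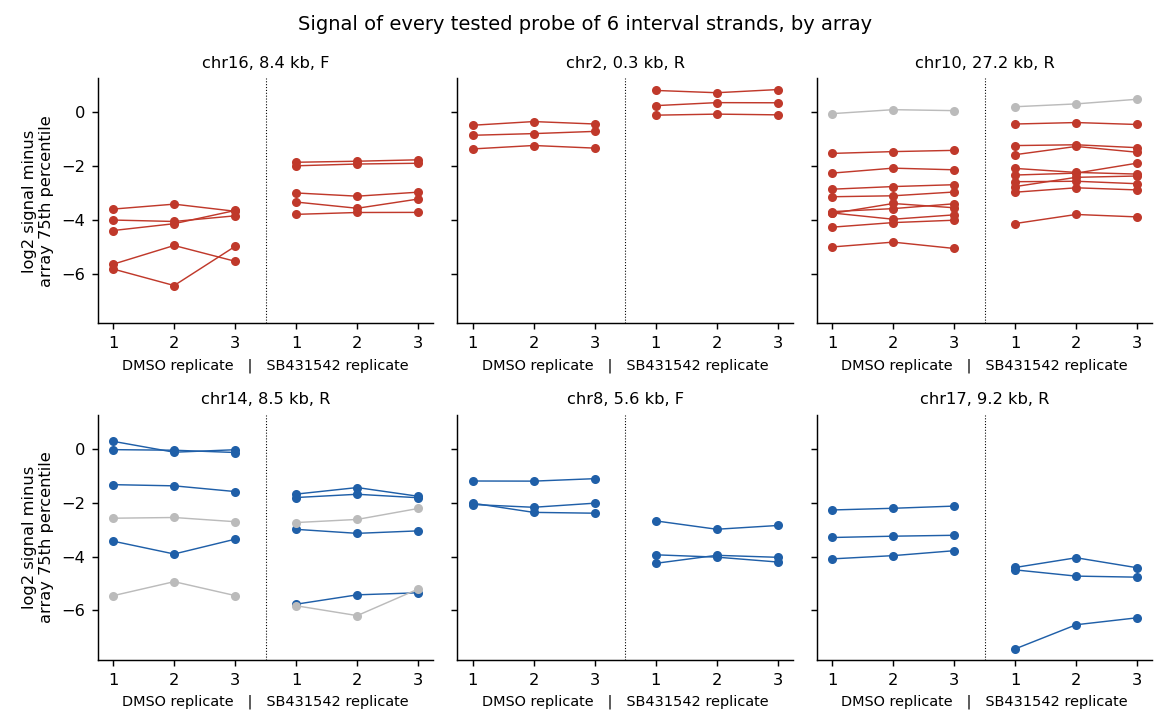
Signal of every tested probe in 6 interval strands on each array. The vertical axis is log2 signal relative to the array's 75th percentile, lines join the values of 1 probe within a group (replicates have no order), red probes rose, blue probes fell and grey probes were not called; for every red probe the SB431542 arrays sit above the DMSO arrays, and for every blue probe they are lower.

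The largest fall among members detected in both groups was in chr11:96175764-96176029, letter F, 266 bp long. That probe read -3.16, -3.22 and -3.25 with DMSO and -5.57, -5.87 and -6.26 with SB431542, where it was well above background on 1 array only. The change was -2.69 ± 0.17, or 6.45-fold lower, with an adjusted p of 0.00099. With normexp it was -0.76, so the size of this fall rests on how the background was treated. Of the other 2 probes, neither was well above background on any SB431542 array. One was called, at least 2.56-fold lower, and the other was not, at least 2.50-fold lower by the same bound.

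In chr17:15368546-15377747, letter R, all 3 probes fell. The probe with the smallest p read -2.27, -2.20 and -2.12 with DMSO and -4.40, -4.04 and -4.41 with SB431542, a change of -2.09 ± 0.12 (-1.08 with normexp) and an adjusted p of 0.00067. A second probe read -4.08, -3.96 and -3.78 with DMSO and was not well above background on any SB431542 array, so it was at least 3.50-fold lower. This bound and those that follow set the mean of the brighter group against the lowest signal well above background on each array of the dimmer group, or the probe's own signal where higher. The third probe fell by 1.41 ± 0.09 on the log2 scale.

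The interval chr8:86705694-86711244 had 3 letter F probes, and all 3 fell, with changes of -1.97 to -1.67. Its best probe read -2.06, -2.17 and -2.01 with DMSO and -3.93, -4.02 and -4.20 with SB431542. The change of -1.97 ± 0.09 (-1.08 with normexp) is 3.92-fold, with an adjusted p of 0.00035. All 3 probes were well above background on all 6 arrays, and none of them overlapped between groups.

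Among the named falls, the smallest p was in chr14:55671783-55680316, letter R. That probe read -0.02, -0.05 and -0.13 with DMSO and -1.80, -1.68 and -1.81 with SB431542, a change of -1.70 ± 0.07 and an adjusted p of 0.00026. Of its 6 R probes 4 fell, with changes of -1.95 to -1.63, and the others read -0.46 ± 0.28 and 0.09 ± 0.14. The 3 letter F probes of the same interval were not called and had a median change of 0.01. Within this interval, then, the calls were on 1 letter and in part of its probes. The difference between letters was not tested.

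Other falls held in every tested probe of their interval strand. In chr17:29571806-29603008, letter F, all 3 probes fell, with changes of -1.55 to -1.47, the largest being -0.61 with normexp. In chr2:176908707-176991202, letter R, all 3 fell, with changes of -1.61 to -1.19, the best from -1.82, -1.97 and -1.94 to -3.19, -3.51 and -3.86 (a change of -0.89 with normexp). In chrX:135880775-135891525, letter R, all 6 fell, with changes of -0.93 to -0.43, while its 2 letter F probes were not called, with changes of 0.18 and 0.26. Letter R also carried the calls in chr6:108556270-108573161, where 5 of 7 fell with a median of -0.61, and the single F probe tested changed by 0.06.

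In other named intervals only part of the tested probes fell. In chr1:162965309-162970704, letter R, 1 of 9 probes fell, with a change of -1.41 ± 0.14 (-0.39 with normexp), and the median over the 9 was -0.13. Both tested letter F probes of this interval also fell, with a median of -0.59. In chr1:92177032-92180487, letter F, 1 of 3 fell, with a change of -1.61 ± 0.09 (-0.53 with normexp), and the changes of the 3 probes lay between -1.61 and -0.61. In chr10:66349796-66378261, letter F, 2 of 4 fell, 1 with a change of -1.49 ± 0.17 (-0.44 with normexp) and 1 detected in DMSO alone, at least 2.40-fold lower. In chr8:90000619-90061169, letter F, 2 of 3 fell, 1 with a change of -1.30 ± 0.16 (-0.34 with normexp) and 1 detected in DMSO alone, at least 1.76-fold lower, and the third changed by -0.15.

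Of the members well above background in 1 group only, those with the largest fitted changes are given here, as bounds. They entered the test through the group where they are high, so their calls support no direction. In chr5:74487385-74497428, letter R, a probe that read -5.10, -4.48 and -5.06 with DMSO was at least 1.83-fold lower with SB431542. In chr4:140841206-140841639, letter F, all 3 probes fell, of which 2 had no SB431542 array well above background and were at least 1.71-fold and 2.47-fold lower. In chr1:182808654-182815659, letter R, 1 probe was at least 1.48-fold lower, while its other 2 probes changed by -0.25 and -0.21 and were not called. Among rises, the single tested probe of chr5:52186651-52187148, letter R, was at least 3.28-fold higher, reading -4.41, -3.77 and -4.35 with SB431542. In chr10:39659425-39674200, letter R, 1 of 4 probes was at least 1.84-fold higher. With normexp, the chr4 probe with the bound of 1.71-fold had an adjusted p of 0.135, the chr5 rise 0.089 and the chr10 rise 0.114.

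The other 6 members chosen in this way passed the threshold only with particular arrays in the fit. The rise of at least 2.01-fold in chr8:18903599-18904143, letter F, had an adjusted p of 0.066 to 0.106 without DMSO replicate 1 or 3 or any 1 SB431542 array. The rise of at least 1.88-fold in chr1:115787961-115860711, letter R, where all 3 probes rose, had 0.057 to 0.096 without DMSO replicate 1 or 2 or any 1 SB431542 array. That of at least 1.64-fold in chr9:65647428-65677009, letter R, had 0.063 to 0.097 without any 1 DMSO array or SB431542 replicate 3. That of at least 1.32-fold in chrX:151738814-151740969, letter R, had 0.067 to 0.150 without any 1 DMSO array or SB431542 replicate 2 or 3. The fall of at least 2.28-fold in chr11:53596919-53672731, letter R, had 0.062 to 0.097 without any 1 DMSO array or SB431542 replicate 1 or 2. The fall of at least 2.42-fold in chr8:26212577-26218527, letter R, had 0.056 to 0.129 without any 1 DMSO array or SB431542 replicate 1 or 3. With normexp and all 6 arrays, this fall had an adjusted p of 0.063, the chr9 rise 0.261 and the chrX rise 0.186. The others of the 6 stayed past the threshold with normexp.

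Probes of 1 interval strand share their interval and may share a transcript, so they are not replicates. Among the 349 interval strands with at least 2 tested probes and at least 1 called, none (0) held calls in both directions. In 50 of them every tested probe was called in 1 direction, in 201 a single probe was called and in 148 more than 1. Of the 974 probes other than the one with the smallest p, 805 (82.6%) changed with the same sign as it. In interval strands with 3 or more tested probes and at least 1 called, this share was 83.1% (755 of 908). Where no probe was called, in 1137 interval strands with 3 or more tested probes, it was 66.0%. These counts include the 40 falls and 6 rises called in members detected in 1 group alone.

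**Figure D3:**
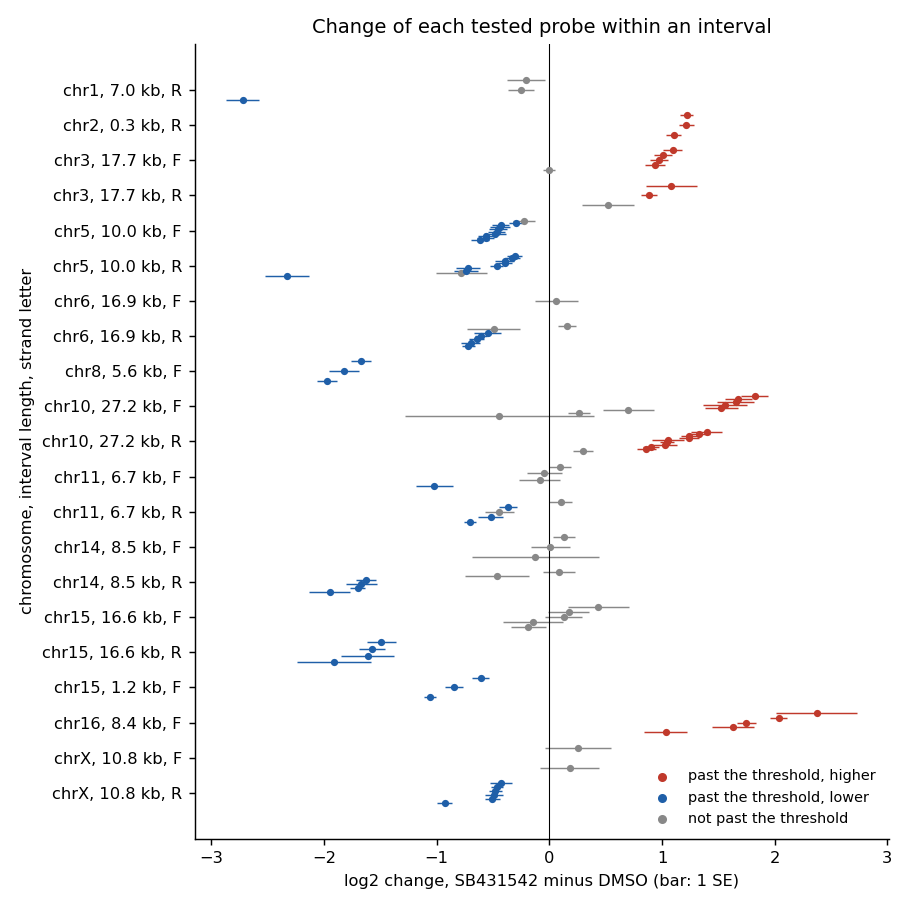
Log2 change (SB431542 minus DMSO) of every tested probe in 21 interval strands, named for calls beside probes of both letters or for 3 or more probes, with bars of 1 SE. Red and blue points are past the adjusted p of 0.05 (higher and lower) and grey points are not; within the intervals on chromosomes 3 and 14, probes at a change near 0 stand beside probes that moved by about 1 or more.

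The array was designed with probes for both letters in 1066 intervals, and 783 had tested probes on both. At least 1 probe was called on F alone in 55 of these, on R alone in 110 and on both in 12, while 606 had none. All 12 intervals called on both letters changed in the same direction on both, 4 up and 8 down, and no interval (0) was called in opposite directions. In 2 of the 8 that fell, chr11:117835849-117842574 and chr15:61984389-62102500, the only call on 1 letter came from a probe that passed the detection rule through DMSO alone and so had to differ. Without such probes 10 intervals were called on both letters, 4 up and 6 down. Besides the intervals on chromosomes 10 and 3 described above, those called up on both were chr2:153163620-153170845, with 1 of 7 F and 6 of 9 R probes, and chrX:146827709-146913398, with 1 of 3 and 2 of 7. Across the 783 intervals the median change on F and on R had the same sign in 433 (55.3%), with a Pearson r of 0.15 and a Spearman rho of 0.15. Both medians come from the same 6 arrays and share their normalization, and intervals are not independent replicates.

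The interval called on both letters with the most probes that fell was chr5:74487385-74497428, where 9 of 10 F and 8 of 9 R probes fell (1 of the latter detected in DMSO alone), with medians of -0.46 and -0.47. The F probe with the smallest p read -0.70, -0.56 and -0.46 with DMSO and -1.22, -1.12 and -1.21 with SB431542, a change of -0.61 ± 0.08. The groups did not overlap, but the change is a modest one. In chr3:95443575-95462543, 2 of 4 F and 3 of 4 R probes fell, and both probes of chr3:95457337-95458070, which overlaps it and has the letter R, fell, with changes of -0.63 and -1.01. In chr11:117835849-117842574, 3 of 5 R probes fell, with a median of -0.45, and 1 of 4 F probes was called lower. That F probe passed the detection rule through DMSO alone and was at least 1.52-fold lower, and the median over the F probes was -0.06.

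**Figure D4:**
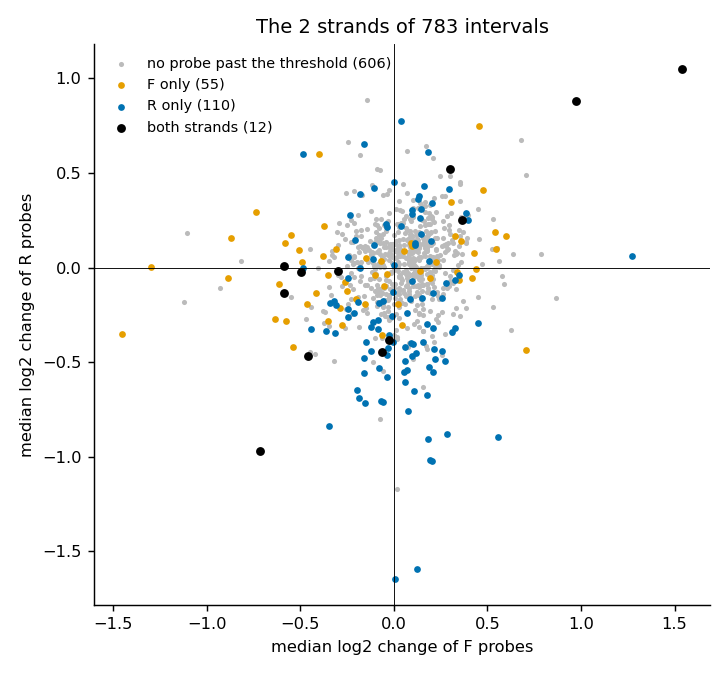
Median log2 change (SB431542 minus DMSO) of the letter R probes against that of the letter F probes in 783 intervals with tested probes on both. Grey points have no called probe, orange points a call on F only (55), blue points on R only (110) and black points on both (12); the black points are 4 up and 8 down by their called probes.

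Some called intervals lay near each other. Of the 2770 intervals tested, 385 held a call. Among 1585 pairs of neighbouring intervals up to 100 kb apart, 32 had a called probe in both and 313 in 1 interval only. In 27 of the 32, the best probes moved the same way. Among 1090 pairs of overlapping intervals, which can share probes' targets, 50 had a call in both and 47 of them in the same direction. A further 214 overlapping pairs had a call in 1 interval only. Whether calls in both were more frequent than the share of intervals called would give was not tested. Over all pairs, called or not, medians had the same sign in 56.0% of those apart and in 60.1% of the overlapping ones. Joining called intervals within 100 kb of each other gave 56 runs. Chromosome 18 was left out of the runs, but not of the pairs. By their best probes 49 runs moved in 1 direction, and 9 runs held 3 or more intervals. These 9 runs were chosen after their values were seen. The counts of pairs and runs include calls of members detected in 1 group alone, which had to differ. Pairs and runs were not counted again without such members.

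The run with the most intervals was chr15:61919018-62102500, which spans 183 kb and 5 intervals with a call, and 15 of its 31 tested probes fell while none (0) rose. Of the 15, 3 passed the detection rule through DMSO alone. At its start, chr15:61919018-61935580, all 4 letter R probes fell. Of these, 3 had changes of -1.61 to -1.49, and the fourth was not well above background on any SB431542 array and was at least 1.70-fold lower. The probe with the smallest p went from -3.58, -3.32 and -3.26 to -5.10, -4.96 and -4.83. Its change was -1.57 ± 0.11 (-0.47 with normexp), with an adjusted p of 0.0013. None of the 5 letter F probes there was called, and their median was 0.13. Near its end, chr15:62090565-62091770 had 3 letter F probes, and all 3 fell, with changes of -1.06 to -0.61. The best of them read -2.08, -2.16 and -2.17 with DMSO and -3.20, -3.18 and -3.21 with SB431542, with an adjusted p of 0.00058.

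Between them, 3 overlapping intervals gave a mixed picture. In chr15:61984389-62102500, 3 of 6 F probes fell, with a median of -0.59. The single call among its 8 R probes was of a probe that passed the detection rule through DMSO alone, at least 1.75-fold lower, and the median over the R probes was 0.01. In chr15:62046023-62082530, letter F, 2 of 3 fell, with changes of -0.46 and -0.28. In chr15:62007025-62090191, letter F, both tested probes fell. One was not well above background on any SB431542 array and was at least 1.64-fold lower, and the other fell with a change of -1.51 ± 0.34 (-0.29 with normexp) and an adjusted p of 0.044. The latter probe was well above background on 1 SB431542 array, and leaving out 1 array ended its call in 5 cases. The adjusted p rose to 0.126 without DMSO replicate 1, 0.121 without replicate 2 and 0.141 without replicate 3, and to 0.117 and 0.079 when SB431542 replicate 2 or 3 was dropped.

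**Figure D5:**
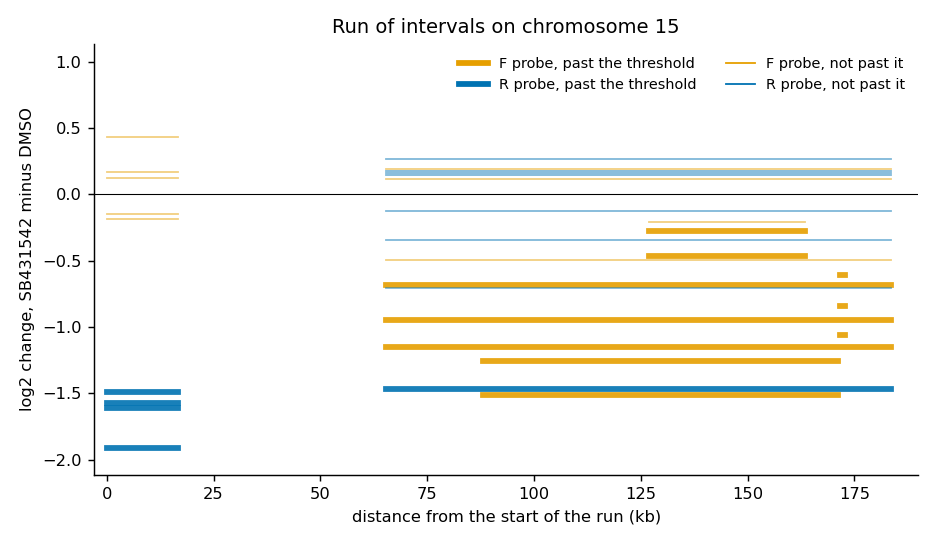
Log2 change (SB431542 minus DMSO) of the 31 tested probes in the run of 5 intervals on chromosome 15, each drawn as a line across its interval as a distance in kb from the start of the run. Orange lines are letter F and blue lines letter R, and thick lines are past the threshold; 15 probes fell, including all 4 letter R probes of the first interval, and none rose.

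A run of rises lay at chr6:31007184-31168433, where all 9 tested letter R probes in 3 separate intervals rose, by 0.42 to 1.11. In the middle interval, the probe with the largest change read -1.69, -1.63 and -1.79 with DMSO and -0.73, -1.08 and -1.01 with SB431542, a change of 0.77 ± 0.11. Within each of these 9 probes the SB431542 arrays were all above the DMSO arrays, and the adjusted p ran from 0.0048 to 0.049. The run at chr8:67542714-67561694 had 3 of 7 probes up. The other runs of 3 or more intervals were mostly down. On chromosome 8, chr8:89996710-90061169 had 8 of 12 probes down (1 of them detected in DMSO alone), with the overlapping letter F intervals chr8:89996710-90049453 and chr8:90048940-90049461 down in 3 of 3 probes each at medians of -0.76 and -0.72. On chromosome 3, chr3:95443575-95462543 had 8 of 11 down and chr3:93150607-93184368 had 5 of 11 down. In the latter, 4 of the 5 called probes were not well above background on any SB431542 array, so they had to differ to be tested. Down calls were also seen in 7 of 10 probes of chr2:174852887-174966675 and 6 of 14 of chr17:39960567-39992817, and chr13:98221098-98603323 had 5 of 20 down (1 of them detected in DMSO alone) and 1 up. The chromosome 17 probes were very bright, reading 4.26 to 8.20 with DMSO, where the median of the DMSO means over tested members was -3.39. Their called changes were small, at -0.59 to -0.30. A pair of overlapping letter F intervals, chr16:43623175-43624069 and chr16:43623581-43642715, fell in 3 of 3 and 3 of 7 probes, and the 4 letter R probes of the latter were not called.

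Noncoding RNAs with a gene symbol give a point of reference. Of 50 listed, 29 were on the array and 23 could be tested, and 1 rose and 5 fell, with a median change of -0.05. Of all probes tested, 4.29% were called higher and 6.49% lower, and of RefSeq noncoding probes 3.41% and 9.29%. The list is short, and its share of calls was not tested against these. H19, an imprinted maternally expressed RNA, rose from -0.99, -1.03 and -1.23 to 0.19, 0.18 and 0.22, a change of 1.28 ± 0.08 with an adjusted p of 0.00089. Pvt1, an RNA from the Myc region, fell from 1.11, 1.08 and 0.95 to 0.48, 0.54 and 0.42, a change of -0.57 ± 0.07 with an adjusted p of 0.0065. In both the groups did not overlap. The other falls were those of the snoRNA host Snhg7 (-0.45), Crnde (-0.44), Mir17hg, the host of a microRNA cluster (-0.42), and Dancr (-0.41). Malat1 and Neat1, the abundant nuclear RNAs of speckles and paraspeckles, changed by -0.25 and 0.26 and were not called, with adjusted p-values of 0.176 and 0.211. The imprinted RNAs Meg3 and Kcnq1ot1 changed by -0.05 and 0.51 and were not called either.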

How the data were processed

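RNA from J1 cells on 3 DMSO and 3 SB431542 arrays was compared, grouped by sample title. The deposited intensity values are background-subtracted processed signals per spot on a linear scale from Agilent Feature Extraction (version 10.7, per the submitters' processing notes), with no normalization between arrays, per the file headers. The background and outlier flags are deposited scores of 0 or 1 from the same program. A deposited log2 table of the same arrays, with a median of 5.18 in every column and its normalization not given in the sources used here, served as an alternative. Each array had 62976 spots, of which 59305 were not controls. Of the latter, 63.9% to 66.2% were well above background and none (0) were saturated.

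Spots flagged as outliers were left out (81 probes), spots of a probe were averaged, and each array's log2 signals were set relative to the 75th percentile of its probes other than controls. The 36210 probes well above background on at least 3 arrays were fitted with limma 3.58.1 in R 4.3.3 (lmFit and eBayes, two-sided, Benjamini-Hochberg over all of them, threshold 0.05), and only members are printed. SE, SD and n refer to arrays, whose number limits the precision. The fit was tested on simulated data. Alternatives were normexp, quantile and median scaling, the deposited table, other filters, thresholds and fits, and leaving out arrays. The files used here lack the mean spot signal, so normexp took the median signals.

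Members named are the 12 largest rises and 12 largest falls past the threshold with groups that do not overlap and detection in both groups. For these, each interval and letter gave 1 probe, the eligible one with the smallest p, so other probes with larger changes can be left out. Also named are up to 6 per direction detected in 1 group only. The intervals with the smallest p on both letters, with 3 or more probes, or beside a called neighbour were named too. Intervals on chromosome 18 were only counted, and were left out of the runs. RefSeq accessions were matched to symbols of assembly GRCm38.p6, from which no coordinates were taken. Members and lists were chosen with earlier results of these data known.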

Additional observations from a re-analysis of the deposited data

How the results depend on the processing

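No named member and no median reversed its direction under any alternative. Quantile normalization called 654 members, 622 of them among the 655 in the same direction, and the deposited table called 653, with 618 shared. Normexp called 593, with 427 shared, only 11 of them at least 2-fold, and a median change of 0.0356. Median scaling gave a median of 0.0382. With no filter on dim probes, 373 were called, 111 higher and 262 lower, with a median of 0.0748. Requiring all 6 arrays left 64 changes of at least 2-fold. The brightest probe of each name gave 248 calls, 92 higher and 156 lower, 21 of them at least 2-fold. An adjusted p under 0.01 left 210, 66 higher and 144 lower, 66 at least 2-fold, and a test against a 1.5-fold change left 34, 13 higher and 21 lower (34 at least 2-fold). Slide 1 alone gave 532 calls. Under every alternative, a smaller share of members than of all probes tested was called.

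Leaving out each array in turn gave 270 to 542 calls, or 3.11% to 6.24% of members, against 4.39% to 9.14% of all probes. Of these calls, 95 to 182 were higher, 175 to 389 lower and 80 to 118 at least 2-fold, and the members' medians were 0.01 to 0.02. With the replicate number as a block, 297 were called, 87 higher and 210 lower. Deviations of same-numbered arrays correlated at -0.04 to 0.07, so the numbers are not taken to pair the samples. Of the 36 named members, 29 kept their call under the block, 30 under normexp and 29 to 32 with 1 array left out. Dim members near the background limit the precision: their signals lie close to the lowest signal called well above background, 8.59 to 10.9.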
